A study of Homo sapiens with 6 samples.

Results

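The proteasome is the cell's main machine for breaking down proteins that carry ubiquitin. Its genes were chosen by name, as the protein-coding genes whose symbol starts with PSM, a letter from A to G and a number, together with POMP. This gave 50 genes of the 58735 in the deposited table, among them the immunoproteasome genes PSMB8, PSMB9 and PSMB10. The cells were MDA-MB-231, a human TNBC line that the labels describe as wild type, so each group was 1 line grown in culture. For 24 h they received either vehicle or 100 mg/l of SCH, an extract of the herb Salvia chinensis Benth, in 3 vehicle-treated and 3 SCH-treated samples that the design text calls biological repeats. mRNA was purified with poly-T beads and sequenced. The vehicle libraries held 20291379, 18714240 and 18334857 counts in genes, and the SCH libraries 16836369, 17979434 and 18414924. Levels are given as FPKM, the count per length of the gene's exons and per sample scale that the authors deposited.

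The line's markers mostly went with its label. VIM (177 to 269 FPKM over the 6 samples), CD44 (94.4 to 101 FPKM), KRT8 (107 to 136 FPKM) and KRT18 (72.1 to 133 FPKM) were abundant, and the receptor genes ESR1 and PGR had at most 0.0157 and 0.00330 FPKM. SPARC, which had also been listed as a marker of these cells, was nearly absent, with 1 or 2 counts in every sample. EPCAM, listed as absent or low, had 4.20 to 6.83 FPKM. The 7 markers of blood and endothelial cells summed to 0.746, 1.08 and 0.601 FPKM after vehicle and to 0.673, 0.842 and 0.727 FPKM after SCH. CD14 was the most abundant of them, and CD3E was at 0 counts in every sample but SCH 3. PTPRC, which marks blood cells, had 39, 37 and 34 counts after vehicle and 4, 9 and 3 after SCH.

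The complete proteasome is a barrel with a cap at its ends. The barrel, or core particle, is built of alpha rings that gate the entrance and beta rings that hold the catalytic subunits PSMB5, PSMB6 and PSMB7. The cap, or regulatory particle, has a base with ubiquitin receptors and ATPase subunits that unfold substrates, and a lid that removes ubiquitin. Interferon can bring in PSMB8, PSMB9 and PSMB10 in place of PSMB5, PSMB6 and PSMB7, which changes the peptides that are made for presentation on MHC class I molecules, and the PA28 activator (PSME1 and PSME2) is known to rise with them. NFE2L1 is known to raise subunit genes when proteasome function is low.

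Promoter sequence is shown for the immunoproteasome and PA28 genes, because these 5 genes are often described as 1 interferon-regulated set and their values after SCH differed, as described in the paragraphs that follow. Windows of 250 bases before to 50 bases after each start were taken from RefSeq on GRCh38.p14, and 44 of the 50 genes had 1 or more, with 54 windows in all. A gene counted as matched if any of its windows held the motif, so genes with more windows had more chances of a match. For all 5 genes shown, the RefSeq start lies inside the gene as GENCODE 29 annotates it. Motifs were searched on both strands, and each was counted by itself where matches overlapped. The interferon-stimulated response element core, searched as GAAA, any 2 bases and GAAA again, was in the windows of PSMB8, PSMB10, PSME1 and PSME2 and not in that of PSMB9. In the sequences, which read 5′ to 3′ on the strand of the gene, capitals mark the match, which for PSMB8 and PSME1 is to the reverse complement.
PSMB8, chr6:32844032-32844061, minus strand: gatctgtggcTTTCGCTTTCacttcctcct
PSMB10, chr16:67936852-67936881, minus strand: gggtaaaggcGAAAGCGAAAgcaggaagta
PSME1, chr14:24136189-24136218, plus strand: gccctaccgcTTTCGCTTTCccttcgcggt
PSME2, chr14:24146619-24146648, minus strand: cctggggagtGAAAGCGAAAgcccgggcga

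The antioxidant response element core, TGACNNNGC, which NFE2L1 and related factors bind, was in the PSMB9, PSME1 and PSME2 windows. In each of them it lay upstream of the start. PSMB9 and PSME2 rose after SCH, while no change was called for PSME1, as described below. The PSMB9 stretch is shown because PSMB9 was the immunoproteasome gene that rose. Capitals again mark the match, to the reverse complement.
PSMB9, chr6:32854024-32854072, plus strand: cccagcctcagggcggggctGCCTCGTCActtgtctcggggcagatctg
A match is a match of letters and was not shown to be a site, and the absence of these letters from a window says nothing about other parts of the promoter.

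After SCH, 22 of the 48 tested proteasome genes had changed (45.8%), against 58.7% of the 14736 genes tested. PSMA8, an alpha subunit known from the testis, and PSMB11, the catalytic subunit known from the thymus, had 0 counts in all 6 samples and were not tested. Of the 22 genes, 13 were raised (27.1%, background 29.3%) and 9 were lowered (18.8%, background 29.4%). The changes were small. The median absolute log2 fold change was 0.13 for the proteasome genes and 0.31 for all tested genes, and the median signed change was -0.0021 and -0.0034. Only PSMA6, PSMB9 and PSMG4, 3 of the 48, changed by 0.5 or more in log2 (6.25%, background 26.8%), and 0 changed by 1 or more (background 8.77%). On the scale of log2(FPKM + 1), which understates the change of low genes, PSMA6 had 0.36 and PSMG4 -0.48 (limma), both under 0.5 in size, and PSMB9 had 0.55. The groups did not overlap in 23 of the 48 genes (47.9%, background 62.4%), with SCH above vehicle in 14 (29.2%, background 31.1%) and below it in 9 (18.8%, background 31.3%).

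These directions are relative to the normalization. Proteasome genes took 0.864%, 0.873% and 0.847% of all counts after vehicle and 0.933%, 0.946% and 0.957% after SCH, so on raw counts the groups did not overlap. Summed FPKM of the proteasome genes was 2810, 2836 and 2681 after vehicle and 2817, 2835 and 2863 after SCH, and here the groups overlapped. Summed FPKM of all tested genes was 288271, 286949 and 280957 after vehicle and 259174, 261278 and 264463 after SCH. With library size alone as the scale, the median of all tested genes moved from -0.0034 to 0.099 and that of the proteasome genes from -0.0021 to 0.10, with 21 raised and 4 lowered, the 4 being PSMB8, PSME3, PSMG1 and PSMG4. On that scale 5519 of the 14736 tested genes were raised and 3295 lowered, so raised genes outnumbered lowered ones over all genes too. The calls of PSMA3, PSMB2, PSMD11, PSMF1 and PSMG3 as lowered were therefore lost on that scale.

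**Figure D1:**
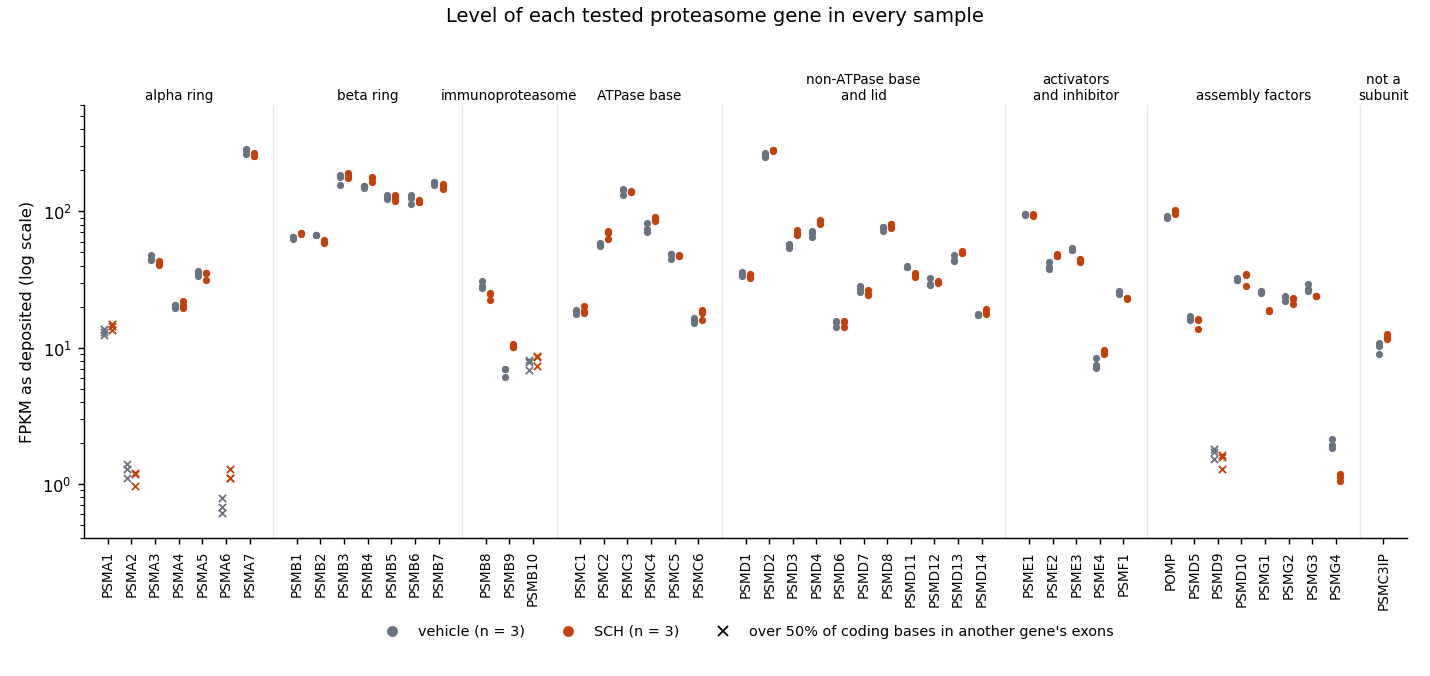
FPKM of each of the 48 tested proteasome genes in every sample on a log axis, grouped by role, with crosses for the 5 genes that have over 50% of their coding bases in exons of another gene. Levels ran from under 1 FPKM for PSMA6 to 285 FPKM for PSMA7, and for most genes the distance between the groups was small beside the distance between genes.

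Most proteasome genes were abundant. Their median level after vehicle was 34.9 FPKM, against 4.53 FPKM for all tested genes. PSMA7, an alpha ring subunit, was highest at 276 ± 12.0 FPKM (SD, n = 3), followed by PSMD2, a large base subunit that binds substrates and shuttle factors, at 260 ± 8.46 FPKM, and their vehicle-treated samples overlapped. All 7 subunits of the beta ring lay between 64.2 and 173 FPKM after vehicle, while PSMB9 and PSMB10 were at 6.69 ± 0.488 and 7.60 ± 0.621 FPKM (SD, n = 3), and the groups of these last 2 genes overlapped after vehicle (6.13 to 7.01 and 6.89 to 8.05 FPKM).

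Very low levels of some subunits met an overlap in the annotation. PSMA2 and PSMA6, obligatory parts of the alpha ring, had 1.27 ± 0.144 and 0.691 ± 0.0883 FPKM after vehicle (SD, n = 3), while the other tested alpha subunits had 13.1 to 276 FPKM. In GENCODE 29, 97.1% of the coding bases of PSMA2 and 70.4% of those of PSMA6 are also exons of a second gene on the same strand (AC010132.3 and AL121594.1), which itself had at most 1 and 5 counts in any sample. The same held for 88.6% of the coding bases of PSMA1 (AC018523.2, 0 counts in every sample), 58.7% of PSMD9 (AC069503.2, at most 1 count) and 58.3% of PSMB10 (AC040162.1, 12 to 24 counts). How reads over 2 genes were counted is not given in the sources used here, so the levels of these 5 genes are uncertain, and the part of the overlap in them was not tested. FPKM also divides by all annotated exons, which for PSMA6 were 6506 bases with 968 coding and for PSMG4 10418 bases with 1134 coding. Pseudogenes named after proteasome genes, 32 in all, summed to 165 to 247 counts in a sample, which was 0.106% to 0.157% of the proteasome gene counts, and 4 of them were tested and none passed the threshold.

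The core particle changed little. Of the 14 tested subunits of its alpha and beta rings, 2 were raised (background 29.3%), 2 were lowered (background 29.4%) and 10 did not pass the threshold, with a median log2 fold change of -0.04. Summed over the core, FPKM was 1285, 1289 and 1206 after vehicle and 1247, 1252 and 1260 after SCH, and the groups overlapped. The medians of the alpha ring (-0.05) and of the beta ring (-0.04) turned to 0.05 and 0.07 with library size alone as the scale.

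In the alpha ring, PSMA6 (ENSG00000100902, chr14:35278633-35317493, GRCh38) had 0.785, 0.679 and 0.609 FPKM after vehicle and 1.28, 1.11 and 1.10 FPKM after SCH. Every SCH-treated sample lay above every vehicle-treated sample, with counts of 73 to 103 after vehicle and 139 to 149 after SCH. The log2 change of 0.74 had a standard error (SE) of 0.14 (adjusted p = 9.78e-05, edgeR's quasi-likelihood test with Benjamini-Hochberg adjustment, used for every adjusted p here). The overlap of its coding bases with a second gene bears on these counts too, and its part in the difference was not tested. PSMA3 (chr14:58244831-58272012) was lowered by a smaller amount, with 45.0, 43.7 and 47.9 FPKM after vehicle and 40.3, 43.1 and 41.5 FPKM after SCH (log2 fold change -0.14, SE 0.05, adjusted p = 0.0294). The other tested alpha subunits did not pass the threshold, with log2 fold changes of 0.12 for PSMA1, -0.18 for PSMA2, 0.02 for PSMA4, -0.05 for PSMA5 and -0.10 for PSMA7. PSMA7 was lowered without vehicle replicate 3, with a log2 fold change of -0.13 (adjusted p = 0.00937).

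In the beta ring, PSMB4, a structural subunit, was raised and PSMB2, another, was lowered. PSMB4 (chr1:151399534-151401944) had 153, 153 and 148 FPKM after vehicle and 164, 180 and 175 FPKM after SCH (log2 fold change 0.19, SE 0.05, adjusted p = 0.00184). PSMB2 (chr1:35599544-35641844) had 67.1, 67.2 and 66.6 FPKM after vehicle and 58.8, 60.3 and 61.2 FPKM after SCH (log2 fold change -0.16, SE 0.05, adjusted p = 0.00373). In both genes the groups did not overlap. Among the structural subunits, PSMB1 and PSMB3 had log2 fold changes of 0.10 and 0.07 and did not pass the threshold.

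The catalytic subunits of the constitutive core did not pass the threshold. PSMB5, which cuts after hydrophobic residues and is the target of bortezomib, had 132, 129 and 123 FPKM after vehicle and 132, 120 and 124 FPKM after SCH (log2 fold change -0.04, SE 0.05, adjusted p = 0.565). PSMB6, which cuts after acidic residues, had 126, 131 and 114 FPKM after vehicle and 121, 117 and 117 FPKM after SCH (log2 fold change -0.07, SE 0.05, adjusted p = 0.280). PSMB7, which cuts after basic residues, had 165, 163 and 155 FPKM after vehicle and 146, 157 and 153 FPKM after SCH (log2 fold change -0.09, SE 0.05, adjusted p = 0.115). The groups overlapped in all 3 genes. The signs of these 3 values turned with library size alone as the scale, to 0.07, 0.03 and 0.01. PSMB6 and PSMB7 were lowered without vehicle replicate 3, with log2 fold changes of -0.12 and -0.11 (adjusted p = 0.0260 and 0.0374).

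**Figure D2:**
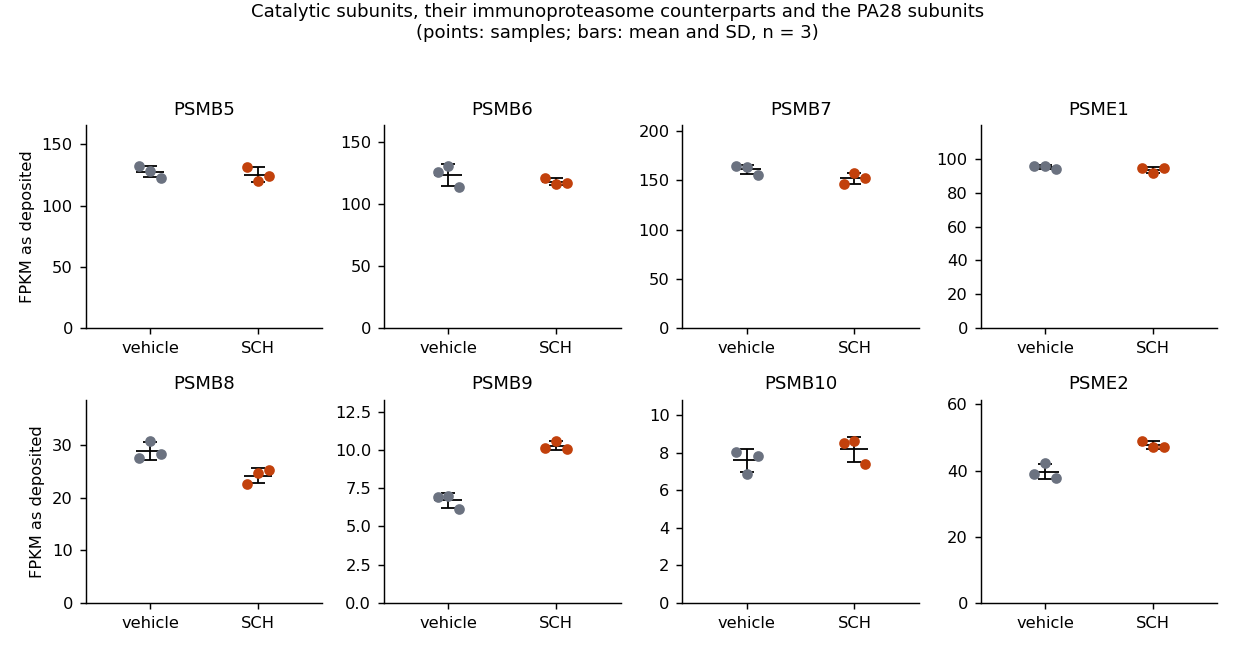
FPKM in every sample of the catalytic subunits PSMB5, PSMB6 and PSMB7 (upper row), of the immunoproteasome subunit that replaces each of them (lower row) and of the PA28 subunits PSME1 and PSME2, with mean and SD of 3 samples and each axis starting at 0. PSMB9 and PSME2 separated upward after SCH, PSMB8 separated downward, and the groups overlapped in the other 5 genes.

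The 3 immunoproteasome subunits did not move as a set. PSMB9 rose, PSMB8 fell and PSMB10 did not pass the threshold. PSMB9 (ENSG00000240065, chr6:32844136-32859585), the counterpart of PSMB6, had 6.94, 7.01 and 6.13 FPKM after vehicle and 10.1, 10.6 and 10.0 FPKM after SCH. The groups were far apart, and the log2 change of 0.61 had an SE of 0.08 (adjusted p = 3.95e-07), a rise of 52.4%. PSMB8 (ENSG00000204264, chr6:32840717-32844703), the counterpart of PSMB5 and the neighbour of PSMB9, had 27.5, 30.8 and 28.2 FPKM after vehicle and 22.5, 24.7 and 25.3 FPKM after SCH. Every SCH-treated sample lay below every vehicle-treated sample, with a log2 fold change of -0.26 (SE 0.06, adjusted p = 8.05e-04).

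PSMB8 shares 20.6% of its exonic bases with the antisense transcript PSMB8-AS1, which had 38, 46 and 35 counts after vehicle and 22, 27 and 28 after SCH, and since the strand setting of the counting is not given, reads from this pair cannot be told apart. PSMB8 and PSMB9 also share 139 exonic bases on opposite strands, and PSMB9 shares 174 with PSMB8-AS1 on its own strand. The part of these overlaps in the values was not tested. PSMB10 (ENSG00000205220, chr16:67934502-67937087), the counterpart of PSMB7, had 8.05, 6.89 and 7.85 FPKM after vehicle and 8.50, 8.63 and 7.39 FPKM after SCH. The groups overlapped, and its log2 fold change of 0.10 (SE 0.10, adjusted p = 0.415) was within its error.

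Within each sample, PSMB9 was 25.2%, 22.8% and 21.7% of PSMB8 by FPKM after vehicle and 45.1%, 42.9% and 39.7% after SCH. These ratios, which do not depend on the sample scale, were 23.3% ± 1.80 and 42.6% ± 2.70 (SD, n = 3) and did not overlap. Against the subunit it replaces, PSMB9 was 5.42% ± 0.0880 of PSMB6 after vehicle and 8.67% ± 0.366 after SCH. PSMB8 was 20.8%, 24.0% and 23.0% of PSMB5 after vehicle and 17.1%, 20.6% and 20.3% after SCH, with groups that came close to each other. PSMB10 was 4.72% ± 0.440 of PSMB7 after vehicle and 5.38% ± 0.499 after SCH (SD, n = 3), and the groups overlapped. Taken over all 6 genes, PSMB8, PSMB9 and PSMB10 held 9.47% ± 0.302 of the summed FPKM after vehicle and 9.72% ± 0.342 after SCH (SD, n = 3), so the share of immunoproteasome transcripts did not separate the groups.

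Of the 17 subunits of the regulatory particle, 6 were raised (background 29.3%), 1 was lowered (background 29.4%) and 10 did not pass the threshold, so the raised share was near that of all tested genes. Its median log2 fold change was 0.06 (core particle -0.04). Its summed FPKM was 1029, 1050 and 990 after vehicle and 1094, 1090 and 1109 after SCH, and the groups did not overlap. The sum is weighted to the most abundant genes. The median log2 ratio to the vehicle mean over the same 17 genes was 0.0054, 0.033 and -0.053 in the vehicle-treated samples. In the SCH-treated samples it was 0.0024, 0.074 and 0.10, so by the median the groups overlapped. The share of raised genes was 6 of 17 here and 2 of 14 in the core, and the difference between these shares was not tested.

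In the ATPase base, whose 6 subunits form the ring that unfolds substrates, PSMC2, PSMC4 and PSMC6 were raised (background 29.3%) and none was lowered (background 29.4%). PSMC2 (chr7:103344254-103369395) had 56.5, 58.9 and 55.7 FPKM after vehicle and 62.7, 69.2 and 71.9 FPKM after SCH (log2 fold change 0.25, SE 0.05, adjusted p = 3.69e-04). PSMC4 (chr19:39971005-39981441) had 74.1, 81.5 and 70.9 FPKM after vehicle and 90.5, 87.8 and 85.5 FPKM after SCH (log2 fold change 0.21, SE 0.05, adjusted p = 0.00143). In both genes SCH lay above vehicle in all samples, while in PSMC6 (log2 fold change 0.15, adjusted p = 0.0361) the groups overlapped, with SCH 1 among the vehicle-treated samples. PSMC1, PSMC3 and PSMC5 had log2 fold changes of 0.03, -0.02 and -0.01 and did not pass the threshold. PSMC1 shares 75.8% of its exonic bases with NRDE2 on the opposite strand, and reads from this pair cannot be told apart here.

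Among the 11 non-ATPase subunits of the base and lid, PSMD3, PSMD4 and PSMD13 were raised (background 29.3%) and PSMD11 was lowered (background 29.4%). PSMD3 (ENSG00000108344, chr17:39980797-39997960), a lid subunit, had 56.3, 57.8 and 53.6 FPKM after vehicle and 73.4, 67.3 and 69.9 FPKM after SCH. The groups were well apart, with a log2 fold change of 0.32 (SE 0.05, adjusted p = 5.20e-06), a rise of 25.0%. PSMD4 (ENSG00000159352, chr1:151254703-151267479), a ubiquitin receptor, had 69.8, 72.2 and 65.3 FPKM after vehicle and 86.4, 80.5 and 82.2 FPKM after SCH (log2 fold change 0.26, SE 0.05, adjusted p = 1.17e-04). PSMD13, a lid subunit, rose by less, from 45.1 ± 2.59 to 49.9 ± 0.950 FPKM (SD, n = 3, log2 fold change 0.14, adjusted p = 0.0183, edgeR).

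PSMD11 (ENSG00000108671, chr17:32444261-32483318), a lid subunit known to promote proteasome assembly and activity in stem cells, had 38.9, 39.1 and 39.4 FPKM after vehicle and 33.0, 34.2 and 35.6 FPKM after SCH. It was the lowered subunit of the regulatory particle, with a log2 fold change of -0.20 (SE 0.05, adjusted p = 0.00102), and it missed the threshold with library size alone as the scale (log2 fold change -0.09, adjusted p = 0.0867). The lid's deubiquitinase PSMD14, which removes ubiquitin chains from substrates, had 17.4 ± 0.238 FPKM after vehicle and 18.6 ± 0.698 FPKM after SCH (SD, n = 3), with a log2 fold change of 0.09 that did not pass the threshold. The other subunits not past the threshold were PSMD1 (-0.05), PSMD2 (0.10), PSMD6 (-0.01), PSMD7 (-0.11), PSMD8 (0.06) and PSMD12 (0.0026), by log2 fold change.

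**Figure D3:**
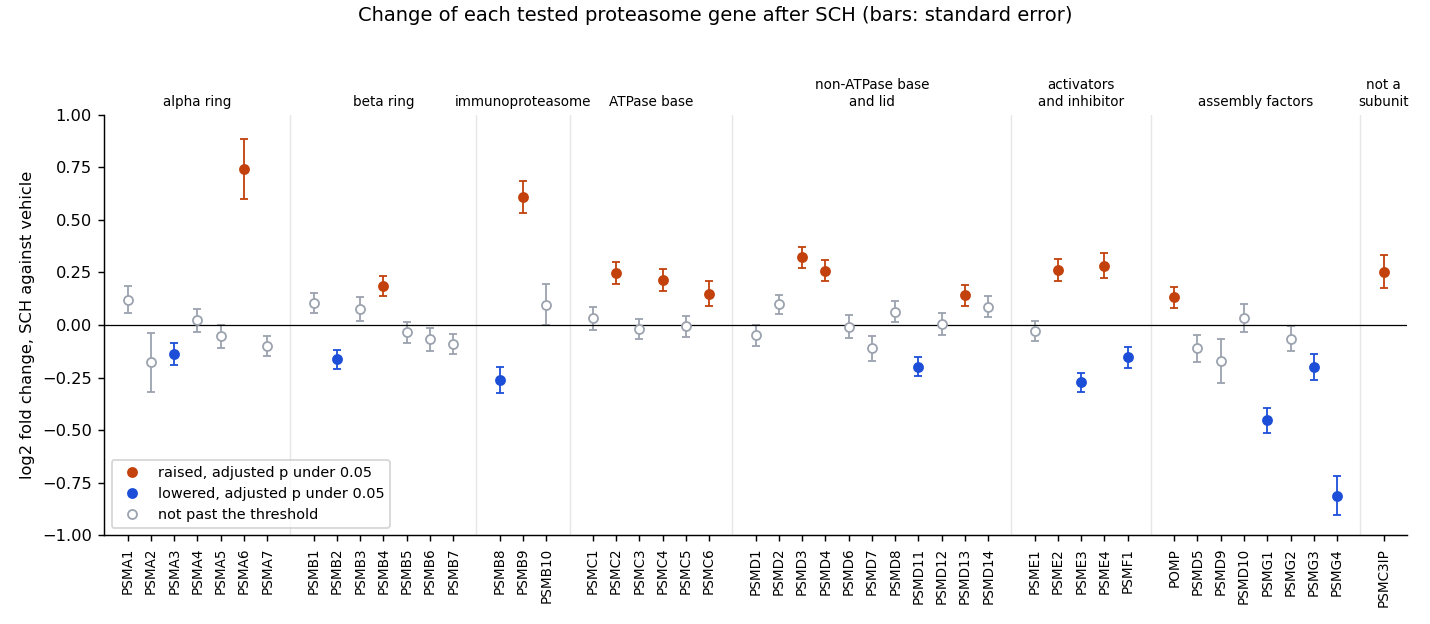
Log2 fold change of SCH against vehicle with its standard error (SE) for each of the 48 tested genes, from edgeR's quasi-likelihood test, grouped by role, with filled points for an adjusted p under 0.05. PSMA6, PSMB9 and PSMG4 stand outside 0.5 in size, and with library size alone as the scale all points would lie about 0.1 higher.

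Activators that open the gate of the core in place of the cap moved in different directions. Of the PA28 pair, PSME1 had 95.9, 95.8 and 93.9 FPKM after vehicle and 94.9, 91.7 and 94.6 FPKM after SCH (log2 fold change -0.03, SE 0.05, adjusted p = 0.626). Its partner PSME2 (ENSG00000100911, chr14:24143362-24147570) had 39.0, 42.1 and 37.7 FPKM after vehicle and 49.0, 47.1 and 47.0 FPKM after SCH. PSME2 rose with groups that did not overlap (log2 fold change 0.26, SE 0.05, adjusted p = 1.46e-04), and PSME2 as a percentage of PSME1 was 41.6% ± 2.09 after vehicle and 50.9% ± 1.02 after SCH (SD, n = 3).

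PSME3 (ENSG00000131467, chr17:42824385-42843758), the nuclear PA28 gamma subunit, fell. It had 52.2, 53.7 and 52.3 FPKM after vehicle and 42.4, 44.3 and 44.9 FPKM after SCH (log2 fold change -0.27, SE 0.05, adjusted p = 2.69e-05). PSME4 (ENSG00000068878, chr2:53864067-53970840), which encodes a large nuclear activator linked to histone breakdown, rose from 7.13, 7.43 and 8.36 FPKM to 9.29, 9.69 and 9.01 FPKM (log2 fold change 0.28, SE 0.06, adjusted p = 3.56e-04). The inhibitor gene PSMF1 (chr20:1113263-1189415) was lowered from 25.6 ± 0.673 to 23.1 ± 0.160 FPKM (SD, n = 3, log2 fold change -0.15, adjusted p = 0.0106, edgeR). In each of these 3 genes the groups did not overlap.

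PSMG4 and PSMG1, both assembly factors, had the largest falls of the 48 tested genes. Of the 8 assembly factors, 3 were lowered (background 29.4%), 1 was raised (background 29.3%) and 4 did not pass the threshold. The difference of these shares from the background was not tested. Their median log2 fold change was -0.14 (-0.04 with library size alone as the scale). The chaperones PSMG1 to PSMG4 act in pairs on the alpha ring, PSMG1 with PSMG2 and PSMG3 with PSMG4. PSMG4 (ENSG00000180822, chr6:3231403-3303373) had 1.92, 2.12 and 1.85 FPKM after vehicle and 1.05, 1.13 and 1.19 FPKM after SCH, with counts of 355 to 411 and 196 to 243. Its groups were far apart, with a log2 fold change of -0.81 (SE 0.09, adjusted p = 8.74e-08). PSMG4 shares 15.0% of its exonic bases with SLC22A23 and TUBB2B on the opposite strand. SLC22A23 had 34, 29 and 33 counts after vehicle and 17, 6 and 18 after SCH. TUBB2B had 43, 27 and 27 counts after vehicle and 67, 47 and 79 after SCH. The part of this overlap in the values was not tested. PSMG1 (ENSG00000183527, chr21:39174769-39183851) had 25.7, 26.3 and 25.0 FPKM after vehicle and 18.7, 19.0 and 18.7 FPKM after SCH (log2 fold change -0.45, SE 0.06, adjusted p = 4.79e-07). The spread within each group was small beside this difference.

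Of the partners of these chaperones, PSMG3 fell and PSMG2 did not pass the threshold. PSMG3 (ENSG00000157778, chr7:1567330-1571005) had 29.2, 27.0 and 26.0 FPKM after vehicle and 24.1, 23.9 and 23.9 FPKM after SCH (log2 fold change -0.20, SE 0.06, adjusted p = 0.00825). Its call rested on vehicle replicate 1, without which the log2 fold change was -0.15 (adjusted p = 0.0903, edgeR), and it was also lost with library size alone as the scale. PSMG2 had 24.0, 22.0 and 23.7 FPKM after vehicle and 20.9, 22.8 and 23.1 FPKM after SCH, and its log2 fold change of -0.07 did not pass the threshold (adjusted p = 0.360).

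POMP (ENSG00000132963, chr13:28659104-28678925), the maturation protein on which the beta ring is built and which the finished proteasome degrades, was slightly higher after SCH. It had 92.5, 90.6 and 88.8 FPKM after vehicle and 96.3, 101 and 102 FPKM after SCH (log2 fold change 0.13, SE 0.05, adjusted p = 0.0264). The groups did not overlap, but the call was lost without vehicle replicate 2 (log2 fold change 0.13, adjusted p = 0.0587), without SCH replicate 2 (0.13, adjusted p = 0.0800), without SCH replicate 3 (0.13, adjusted p = 0.0730), where the size of the change was kept with fewer samples, and with upper quartile scaling (log2 fold change 0.10, adjusted p = 0.0904). The chaperones of the regulatory base, PSMD5, PSMD9 and PSMD10, had log2 fold changes of -0.11, -0.17 and 0.03 and did not pass the threshold.

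PSMC3IP was caught by the naming rule and is not a proteasome subunit but a factor of meiotic recombination, named for its binding to PSMC3. It had 10.0 ± 0.952 FPKM after vehicle and 12.0 ± 0.485 FPKM after SCH (SD, n = 3, log2 fold change 0.25, adjusted p = 0.00814, edgeR). PSMC3IP shares 29.9% of its exonic bases with MLX on the opposite strand, and reads from this pair cannot be told apart here. Without PSMC3IP, 12 of the 47 tested genes were raised (background 29.3%) and 9 lowered (background 29.4%).

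**Figure D4:**
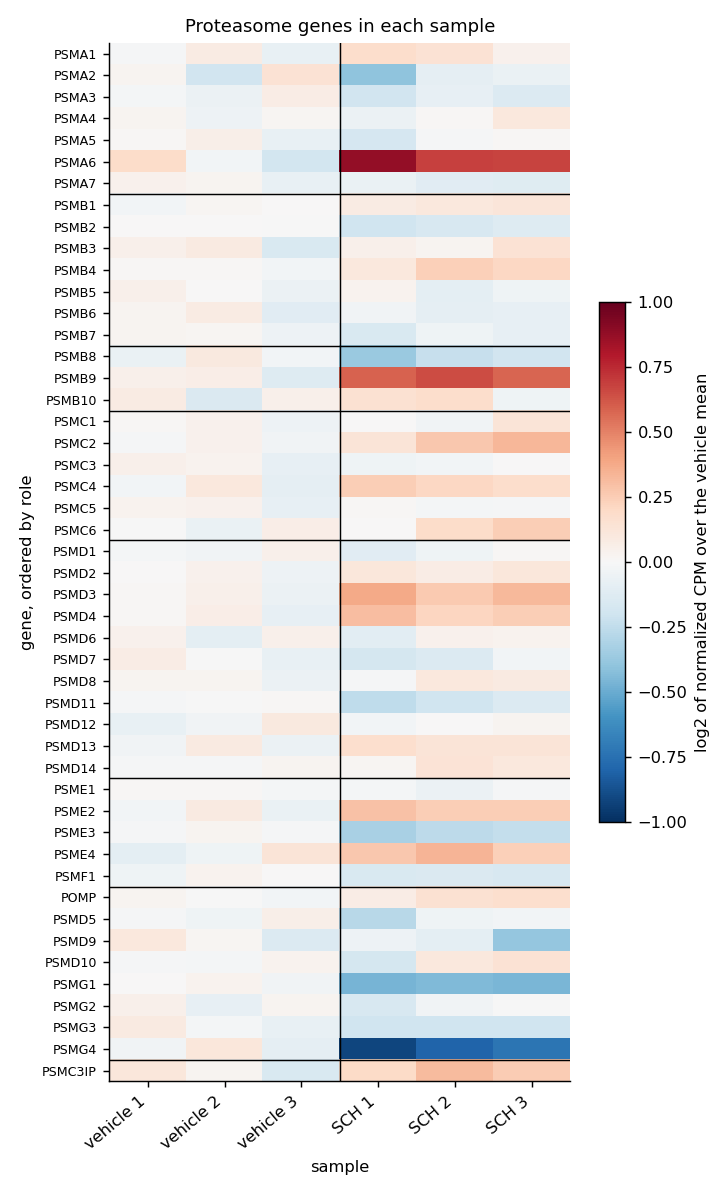
Log2 of the TMM-normalized CPM of each tested gene in each of the 6 samples over the vehicle mean, ordered by role, with red above and blue below. PSMA6 and PSMB9 are red and PSMG4 and PSMG1 blue in all 3 SCH-treated samples, and within the SCH group replicate 1 differs from the others in genes such as PSMD10 and PSMC6.

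Other genes of the pathway were taken as whole lists, in the same fit. Of 13 further subunits and proteasome-bound proteins, 3 were raised (background 29.3%), 4 were lowered (background 29.4%) and 6 did not pass the threshold, with a median log2 fold change of -0.00067 (median of all tested genes -0.0034). UCHL5, a deubiquitinase of the regulatory particle, had a log2 fold change of -0.36 (adjusted p = 2.80e-05). ZFAND5, which binds and stimulates the proteasome, had 0.33 (adjusted p = 1.09e-05), and PITHD1, which associates with the cap, had 0.29 (adjusted p = 1.29e-04). ADRM1 and SEM1, a ubiquitin receptor and a lid subunit whose symbols the naming rule does not cover, had 0.04 (adjusted p = 0.692) and 0.20 (adjusted p = 0.0124).

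Genes for ubiquitin itself did not move together. Of 6 ubiquitin and ubiquitin-activating enzyme genes, 4 were raised (background 29.3%), 1 was lowered (background 29.4%) and 1 did not pass the threshold, with a median log2 fold change of 0.16. RPS27A, which encodes ubiquitin fused to a ribosomal protein, fell from 213 to 163 FPKM in the mean (log2 fold change -0.39, adjusted p = 1.03e-07). UBA1, the main activating enzyme, had a log2 fold change of 0.20 (adjusted p = 6.64e-04).

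Shuttle factors, which carry ubiquitinated proteins to the proteasome, and the segregase that extracts them from complexes changed in both directions, in shares near the background. Of the 12 tested of 13, 4 were raised (background 29.3%), 4 were lowered (background 29.4%) and 4 did not pass the threshold, with a median log2 fold change of 0.08, and DDI1 had 0 counts and was not tested. FAF1 had a log2 fold change of -0.59 (adjusted p = 3.76e-09), RAD23B -0.37 (adjusted p = 2.11e-07) and UFD1 0.31 (adjusted p = 5.12e-05). FAF1 and UFD1 encode cofactors of the segregase VCP, and RAD23B a shuttle factor.

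NFE2L1, the transcription factor known to act on subunit genes, had 71.9 FPKM after vehicle and 76.3 FPKM after SCH in the mean, with a log2 fold change of 0.08 (SE 0.05, adjusted p = 0.168). In the list of 6 genes for NFE2L1, the related NFE2L2 and the processing of NFE2L1, 3 were raised (background 29.3%), 0 were lowered (background 29.4%) and 3 did not pass the threshold, with a median log2 fold change of 0.11. SYVN1, a ubiquitin ligase of the endoplasmic reticulum that also keeps NFE2L1 low, had a log2 fold change of 0.69 (adjusted p = 3.30e-10), NFE2L2 0.34 (adjusted p = 7.16e-05) and SEL1L, the partner of SYVN1, 0.15 (adjusted p = 0.0480). The protease DDI2, which cuts NFE2L1 and is also in the shuttle factor list, had -0.13 (adjusted p = 0.176).

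Genes of peptide loading on MHC class I and their interferon factors gave the highest median of these lists. Of the 11, 6 were raised (background 29.3%), 2 were lowered (background 29.4%) and 3 did not pass the threshold, with a median log2 fold change of 0.29. TAP1, a subunit of the transporter that carries peptides from the cytosol to the endoplasmic reticulum, rose from 13.4 to 26.9 FPKM in the mean (log2 fold change 1.00, SE 0.06, adjusted p = 1.46e-12), while its partner TAP2 had -0.0034 (adjusted p = 0.964). TAP2 has 90.6% of its coding bases in exons of another gene (TAP1 8.42%), so its counts carry the same uncertainty as those of PSMA2, and its part in the difference between TAP1 and TAP2 was not tested. STAT2, a factor that carries the interferon signal, had a log2 fold change of 0.87 (adjusted p = 9.41e-12). TAPBPL and ERAP2 were lowered, with -0.52 (adjusted p = 0.0111) and -0.31 (adjusted p = 0.0265). TAP1 and PSMB9 face away from each other on chromosome 6, and their nearest RefSeq starts are 488 bases apart, while the nearest PSMB8 start is 9513 bases from that of PSMB9.

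**Figure D5:**
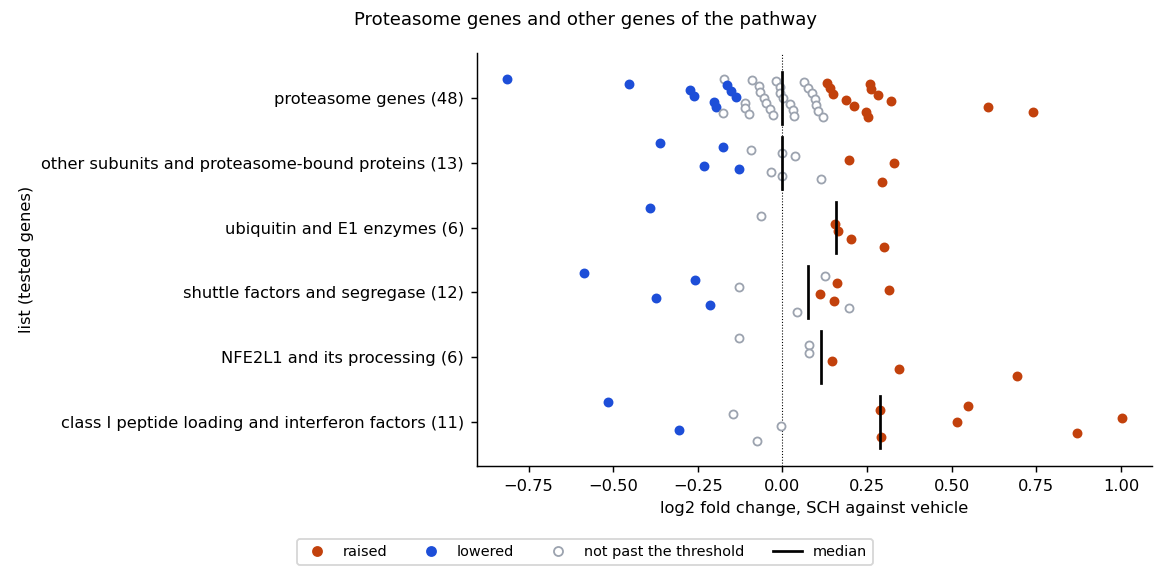
Log2 fold change of every tested gene of the proteasome and of 5 lists from the same pathway, from edgeR, with 1 point a gene and a black line at each median. The proteasome genes centre near 0 between -0.81 and 0.74, and the class I and interferon list has its median at 0.29 and TAP1 at 1.00.

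Across all 44 proteasome genes with a promoter window, the interferon-stimulated response element core was found in 7 (15.9%), against 4.38% of the 27305 genes with a window. The 7 were PSMA4, PSMB4, PSMB8, PSMB10, PSME1, PSME2 and PSMG4, of which PSMB4 and PSME2 were raised, PSMB8 and PSMG4 lowered and the other 3 not past the threshold. TGACNNNGC was found in 15 (34.1%, all genes 16.1%), among them 5 of the 12 raised genes with a window, 1 of the 8 lowered and 9 of the 22 not past the threshold. CCGGAAG, a core of ETS factor sites, was found in 17 (38.6%, all genes 12.2%), in 7 raised, 2 lowered and 7 genes not past the threshold, and in the untested PSMA8. CCAAT was found in 21 (47.7%, all genes 39.7%) and TTCNNNGAA, the gamma-activated site, in 8 (18.2%, all genes 9.38%), among them PSMB8. These shares are descriptions of letters in fixed windows, and the differences between them were not tested.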

How the data were processed

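RNA sequencing of 3 vehicle-treated and 3 SCH-treated samples was analysed. The authors deposited raw counts per gene and FPKM per sample. The submitters' processing notes list CASAVA 1.8, HISAT2 2.0.5, featureCounts 1.5.0-p3, DESeq2 1.20.0 and GRCh38, with no parameters. All 58735 gene identifiers are in GENCODE 29, and the deposited gene length equals the union of its exons. Within a sample, the deposited FPKM was proportional to count over length, with a scale 0.992 to 1.067 times the total count and 1.026 to 1.036 times the TMM-scaled library.

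Counts were tested in R 4.3.3 with edgeR 4.0.16 (TMM, filterByExpr, quasi-likelihood test, no covariates), with Benjamini-Hochberg adjustment over the 14736 genes kept and a threshold of 0.05. The standard error is the absolute log2 fold change over the square root of F. TMM factors were 0.963, 0.961 and 0.971 (vehicle) and 1.037, 1.038 and 1.034 (SCH). The common coefficient of biological variation was 5.17%, and no library was a copy of another (chi-square per degree of freedom 1.79 to 3.89). Scripts were tested on simulated data.

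Genes named are the catalytic subunits and their immunoproteasome counterparts, PSME1, PSME2, POMP, the 6 largest rises and falls, all genes not tested or not past the threshold, and the 3 largest changes of each list, of which some are not reported here. Others past the threshold (PSMA3, PSMB2, PSMB4, PSMC2, PSMC4, PSMC6, PSMD13, PSMF1, PSMC3IP) and some list genes were named after their values were seen. Genes, roles and lists were chosen with earlier results of these data known. Alternatives were RLE, library size and upper quartile scaling, no filter on low counts, a minimum of 10 counts per sample and gene, DESeq2 1.42.0, limma 3.58.1 on log2(FPKM + 1) and log2(FPKM + 0.1), a replicate block, each replicate left out, and an adjusted p under 0.01. Leaving out PSMC3IP and the 5 genes with shared coding bases was added after seeing the data.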

Additional observations from a re-analysis of the deposited data

How the results depend on the processing

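Of the 39 proteasome genes followed under 15 alternatives, 24 kept their side of the threshold in all of them, 15 changed side in at least 1, and no called change took the other sign. The called genes PSMA3, PSMB2, PSMB4, PSMC2, PSMC4, PSMC6, PSMD13, PSMF1 and PSMC3IP were not among the 39, so these counts do not cover them. Library size alone as the scale gave 21 proteasome genes raised and 4 lowered (all tested genes 5519 and 3295), and medians of 0.101 for the proteasome genes, 0.0497 for the alpha ring, 0.0678 for the beta ring, 0.20 for the immunoproteasome, 0.19 for the ATPase base, 0.17 for the non-ATPase base and lid, 0.0742 for the activators and inhibitor and -0.0386 for the assembly factors, where TMM gave -0.0021, -0.05, -0.04, 0.10, 0.09, 0.06, -0.03 and -0.14. PSMA3, PSMB2, PSMD11, PSMF1 and PSMG3 lost and, among the 39 genes, PSMA1, PSMA4, PSMB1, PSMB3, PSMC1, PSMD2, PSMD8 and PSMD14 gained a call, PSMD2 also with DESeq2 and with no filter and PSMB1 also with limma. Upper quartile scaling gave 10 raised and 12 lowered (all tested genes 3918 and 4675), medians of -0.0346 for the proteasome genes and -0.0613 for the activators and inhibitor, and calls for PSMA7, PSMB7 and PSMD7. Leaving out 1 replicate at a time gave 11 to 14 raised and 7 to 12 lowered genes, 7809 to 8489 changed genes in all, and medians from -0.012 to 0.033 for the proteasome genes, from -0.0865 to 0.00558 for the alpha ring (both highest without SCH replicate 1), from -0.0624 to 0.00341 for the beta ring (above 0 without SCH replicate 2), from 0.0570 (without SCH replicate 3) to 0.127 for the ATPase base, from 0.0337 (without vehicle replicate 2) to 0.175 (without SCH replicate 3) for the immunoproteasome, from 0.0478 to 0.0990 (without SCH replicate 1) for the non-ATPase base and lid, and from -0.0370 to -0.00504 (without SCH replicate 2) for the activators and inhibitor. Without vehicle replicate 3, PSMA7, PSMB6, PSMB7 and PSMD7 gained a call as lowered and PSMB1 as raised. PSMD2 gained a call as raised without SCH replicate 1. The share of PSMB8, PSMB9 and PSMB10 in the 6 catalytic genes differed by 0.246 percentage points (SCH minus vehicle), and by 0.0769 to 0.430 without 1 replicate. In their deviations from the group mean, samples with the same replicate number had correlations of 0.046, -0.022 and 0.022 over genes. Samples with different numbers had -0.084 to 0.066. These values show no shared deviation by number, but they cannot tell whether samples were prepared in pairs. A fit with the replicate number as a block gave 13 raised and 9 lowered proteasome genes and 8705 changed genes in all. On log2(FPKM + 1), the low genes PSMA6 and PSMG4 kept their calls at 0.36 and -0.48, in place of 0.74 and -0.81. An adjusted p under 0.01 left 10 raised and 7 lowered, and 7026 changed genes in all. Without the 5 genes with shared coding bases, 12 of the 43 tested genes were raised (background 29.3%) and 9 lowered (background 29.4%). Without PSMC3IP, 12 were raised and 9 lowered, against the same background.

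With 3 samples a group, the depth limits small changes of low genes most. PSMA6 (73 to 149 counts) and PSMA2 (92 to 139 counts) had standard errors of 0.14, against 0.04 to 0.05 for the abundant PSMA7 and PSMD2. Reads shared between overlapping genes, and reads of antisense partners, could not be separated in these counts.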
